A study of Mus musculus with 672 samples.

Results

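Cytosolic ribosomal protein genes were followed through 3 stages of lymphoid development in mice that lacked Mbd3 and in control mice. The members were the protein-coding genes whose symbol is Rpl or Rps and a number (with at most an a, x, y or l and a further digit after it), plus Rplp0, Rplp1, Rplp2 and Rpsa. Pseudogenes and the ribosomal protein S6 kinases were left out. This rule used names and no measured value, and it gave 83 of the 46078 genes in the count table. Of these, 77 were core members, 46 of the large and 31 of the small subunit, and 6 were paralogues kept apart (Rpl3l, Rpl7l1, Rpl10l, Rpl22l1, Rps27l and Rpl39l). All 77 core members and 5 paralogues passed the filter on low counts and were tested. Rpl10l did not pass it.

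The null mice were Mbd3del/del (18217 and 18219) and the control mice Mbd3flox/flox (18218 and 18220), all 7 weeks old and of strain C57BL6/129Ola. Both genotypes carry altered Mbd3 alleles, and the agent that deleted them was not given in the sources used here. Mbd3 is a subunit of NuRD, a chromatin complex with nucleosome remodelling and histone deacetylase activity. Single bone marrow cells were sorted for full-length RNA-seq as LMPP (lymphoid-primed multipotent progenitor, 48 cells per mouse), ALP (all-lymphoid progenitor, 84 cells) and BLP (B cell-biased lymphoid progenitor, 36 cells). All were lineage-negative cells with Sca-1, c-Kit and high Flt3. LMPPs had no surface IL-7 receptor, ALPs had it without Ly6D, and BLPs had both. The mouse is the replicate, so every group had 2 mice. In the joint fit of all populations, the p-values rest on the spread between the 2 mice of a group, pooled over the 6 groups. Populations of the same mouse count there as independent libraries.

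Ribosomal proteins and ribosomal RNA build the large and small subunits of the ribosome, which reads messenger RNA and joins amino acids. Many of these genes start transcription within a run of pyrimidines, and messenger RNAs that begin with such a run are translated according to the activity of the mTOR pathway. Blood cell formation is sensitive to the dose of these proteins: in humans, loss of 1 copy of RPS19 and of several others causes Diamond-Blackfan anaemia, and mice without Rpl22 lose most alpha-beta T cells.

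Promoters are shown first for 3 core members whose levels were lower at each stage, for Rpl11, and for the only member past the threshold. RefSeq promoter sequences (GRCm38.p6, the assembly also called mm10) were found for 63 of the 83 members. Each line runs 5′ to 3′ from 100 bases before to 25 bases after an annotated start. Capitals mark runs of at least 8 C or T on the sense strand and matches, on either strand, to CCGGAAG (an ETS-type site), AAGATGGC (YY1-type), GGGCGG (Sp1-type) or TATAAA. In the Rpl11 window CCGGAAG adjoins a pyrimidine run. CCGGAAG and AAGATGGC can share the letters AAG, and each was counted wherever it occurred.
Rpl4 (chr9:64173287-64173411, plus strand): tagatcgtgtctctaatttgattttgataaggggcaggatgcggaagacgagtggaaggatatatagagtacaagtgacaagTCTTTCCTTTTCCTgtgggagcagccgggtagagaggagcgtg
Rplp0 (chr5:115559367-115559491, plus strand): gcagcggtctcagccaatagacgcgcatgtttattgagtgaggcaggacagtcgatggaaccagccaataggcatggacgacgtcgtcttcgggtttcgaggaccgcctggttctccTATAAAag
Rps4x (chrX:102189367-102189491, minus strand): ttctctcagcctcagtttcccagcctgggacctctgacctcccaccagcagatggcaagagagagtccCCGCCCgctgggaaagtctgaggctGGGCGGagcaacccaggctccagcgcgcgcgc
Rpl11 (chr4:136053369-136053493, minus strand): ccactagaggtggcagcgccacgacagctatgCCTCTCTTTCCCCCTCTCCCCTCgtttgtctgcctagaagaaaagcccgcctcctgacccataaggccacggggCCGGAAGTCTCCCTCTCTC
Rpl3l start 1 (chr17:24727726-24727850, plus strand): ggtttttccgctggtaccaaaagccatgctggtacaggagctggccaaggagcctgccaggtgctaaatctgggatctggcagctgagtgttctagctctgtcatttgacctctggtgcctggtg
Rpl3l start 2 (chr17:24732585-24732709, plus strand): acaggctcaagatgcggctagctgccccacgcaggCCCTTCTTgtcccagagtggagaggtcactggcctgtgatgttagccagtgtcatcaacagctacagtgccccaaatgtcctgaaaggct
Of the 57 core members in the promoter table, 84.2% had a pyrimidine run of at least 8 bases within 50 bases of a start, against 39.3% of all 27025 genes in the table. CCGGAAG lay within the 300 bases of 42.1% of core members and 9.93% of all genes. AAGATGGC lay in 8.77% and 3.19%. GGGCGG lay in 61.4% and 38.2%, and TATAAA in 10.5% and 15.7%. The Rpl4 window held a run of 14 pyrimidines that began at -18 from the RefSeq start, chr9:64173387. The Rpl4 start in the annotation used for the gene coordinates below, chr9:64173375, lies within that run. The Rplp0 and Rps4x windows held no run of at least 8 pyrimidines, but they end 25 bases after the start, and the count above reached 50 bases. TATAAA lay after the start in the Rplp0 window, and GGGCGG before the start in the Rps4x window.

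The table holds read counts without molecular identifiers, so intervals and limits for a count of 0 cover counting error only. Of 672 cells, 561 were kept, with 40 to 79 ALPs and 34 to 47 cells of the other populations per mouse. Summed per mouse and population, the 12 libraries held 53741264 to 137497554 gene counts. The median cell held 1079340 to 1380550 gene counts in null libraries and 1703600 to 2475550 in control libraries. Depth per cell therefore differed with genotype. Levels are TMM-scaled CPM (counts relative to the gene counts of the library) unless said otherwise, and values of 2 mice stand in the order 18217 and 18219 for null and 18218 and 18220 for control. Mbd3 itself had 0.189 to 24.7 CPM in null libraries, against 48.1 to 191 CPM in control libraries. The highest null value came from the LMPPs of mouse 18219, where 1 cell held 98.3% of its reads. Some of the results that rest on that library are therefore also given without it, an alternative chosen after the data were seen. Il7r and Ly6d transcripts followed the sort: Il7r had 3.72 to 26.7 CPM in LMPPs, 546 to 874 CPM in ALPs and 591 to 909 CPM in BLPs, and Ly6d had 2.05 to 4.28, 36.2 to 133 and 1501 to 3749 CPM. Flt3 had 584 to 1019 CPM in all 12 libraries. Kit, which all populations carry on the surface by the sort, had 364 to 549 CPM in LMPPs, 61.9 to 137 CPM in ALPs and 89.7 to 137 CPM in BLPs, and fell in ALPs relative to LMPPs (log2 fold change -1.99 ± 0.26, adjusted p = 0.0116, edgeR). Ly6a, which encodes Sca-1, had 62.2 to 501 CPM.

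Core ribosomal protein transcripts took a smaller part of the gene counts at each stage from LMPP to BLP. In LMPPs they made up 3.07 and 3.25% of gene counts in null mice, against 3.00 and 3.47% in control mice. In ALPs the share was 2.67 and 2.99% in null mice, against 2.72 and 2.77% in control mice. In BLPs it was 2.25 and 2.50% in null mice, against 2.54 and 2.54% in control mice. The order LMPP above ALP above BLP held in each of the 4 mice, and the share in BLPs lay below that in LMPPs by 26.7% and 23.0% in null mice, against 15.2% and 26.6% in control mice. The same order held in each mouse for the large subunit, for the small subunit, after every cell was thinned to 50000 counts, and with the mitochondrial genome left out of the total. Means were 3.16 ± 0.124% in null and 3.23 ± 0.330% in control LMPPs, 2.83 ± 0.220% in null and 2.74 ± 0.0375% in control ALPs, and 2.38 ± 0.175% in null and 2.54 ± 0.000235% in control BLPs (SD, n = 2 mice each). The ranges of null and control mice overlapped in LMPPs and ALPs. In BLPs both null values lay below both control values. These shares are sums over chosen genes and carry no test.

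Kept single cells showed the same order. The median cell spent 3.06 and 3.26% of its gene counts on core members in null LMPPs, against 2.93 and 3.38% in control LMPPs. In ALPs the medians were 2.66 and 2.83% in null mice, against 2.72 and 2.70% in control mice. In BLPs they were 2.19 and 2.34% in null mice, against 2.46 and 2.48% in control mice. Medians were lower at both steps in every mouse, while the cells of one population overlapped widely with those of the next. With the left-out cells included, the second step was lost in mice 18219 and 18220, whose median was 2.34 and 2.49% in BLPs, against 2.24 and 1.60% in ALPs. In these mice 42 and 40 of 84 ALPs were kept. Both subunits kept their proportion, with 1.01 to 1.12 reads of large-subunit genes per read of small-subunit genes in the 12 libraries. Within libraries, Spearman's rho between a cell's ribosomal protein share and its gene counts ran from -0.34 to 0.35, and between that share and its summed G2 and M phase transcripts from -0.37 to 0.23. With its mitochondrial share rho ran from -0.22 to 0.45, and all 3 are given as descriptions over 34 to 79 cells of 1 library.

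**Figure D1:**
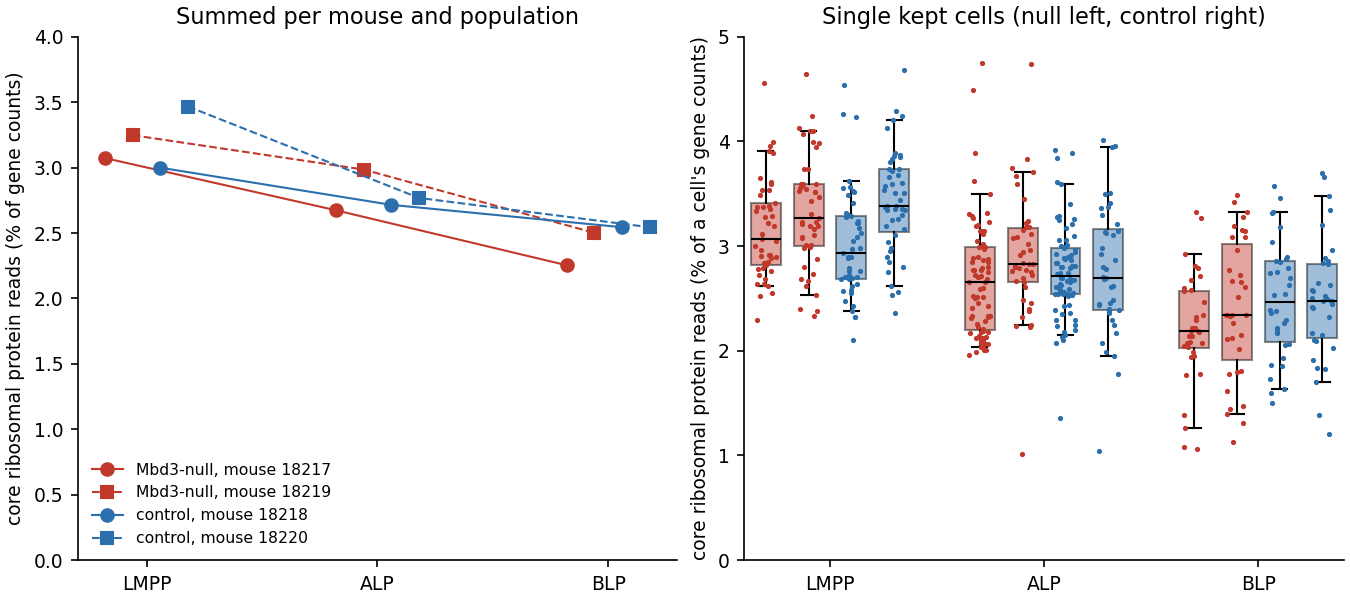
Left, share of gene counts held by the 77 core ribosomal protein genes (percent, vertical axis) in each summed library by population, with a line for each mouse. Right, the same share in every kept cell, with boxes for the quartiles and whiskers from the 5th to the 95th percentile, the 2 null mice left of the 2 control mice. All 4 lines descend from LMPP through ALP to BLP, and cells of neighbouring populations overlap.

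Markers of other cell types and of dividing cells also differed between the populations. The summed level of 9 granulocyte and monocyte markers was 1375 and 2010.3 CPM in null LMPPs, against 1078 and 1289 CPM in control LMPPs, it was 1004 and 939.6 CPM in null ALPs, against 637 and 327 CPM in control ALPs, and it was 422 and 435 CPM in null BLPs, against 276 and 154 CPM in control BLPs. Most of it was Mpo and Lyz2, and of the 7 markers tested 2 were higher and 5 lower in null than in control LMPPs (median log2 fold change -1.66, 0 past the threshold). Lyz2 fell in ALPs relative to LMPPs (-1.98 ± 0.30, adjusted p = 0.0223, edgeR), and Sdc1 of the mature B and plasma cell markers rose (1.56 ± 0.24, adjusted p = 0.0224, edgeR). Sdc1 went against most of its list: of the 8 such markers tested, 3 were higher and 5 lower in ALPs (median log2 fold change -0.27). Ly6g was at most 0.232 CPM and Elane at 0 in 9 of 12 libraries. The 24 G2 and M phase genes summed to 2047 and 1001 CPM in null LMPPs, against 703 and 542 CPM in control LMPPs, and to 4241 and 2688 CPM in null BLPs, against 1449 and 881 CPM in control BLPs. In ALPs they summed to 1852 and 1067 CPM in null mice, against 3712 and 1528 CPM in control mice. Null over control, 24 of 24 of these genes were higher in LMPPs and in BLPs and 24 of 24 lower in ALPs, with 0 past edgeR's threshold in each. In ALPs over LMPPs 10 were higher in null mice and 24 in control mice, also with 0 past it. Of all genes, 50.9% were lower in null than in control LMPPs, 50.4% in BLPs and 49.9% in ALPs. For ALPs over LMPPs 49.3% of all genes were lower in null mice and 50% in control mice. The summed level of 9 erythroid markers was 1.58 to 46.2 CPM, that of 10 T and NK cell markers 409.5 to 691 CPM, that of 9 mature B and plasma cell markers 181 to 411 CPM and that of 8 macrophage and stroma markers 83.3 to 254 CPM over the 12 libraries, with Gzma, Car1 and Adgre1 at or near 0. Most of the T and NK sum was Nkg7 (206 to 439 CPM) and Lck (60.2 to 335 CPM). Sdc1 (20.4 to 219 CPM) and Xbp1 (113 to 254 CPM) made up most of the mature B and plasma sum, with Ms4a1 at most 0.411 CPM. Pecam1 (81.0 to 253 CPM) made up most of the macrophage and stroma sum. The median cell's mitochondrial share was 5.28 to 6.02% in LMPPs, 6.01 to 6.90% in ALPs and 6.19 to 7.43% in BLPs. The part of these differences in the ribosomal protein shares was not tested, except that the order of the populations was the same without the mitochondrial genome.

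Levels differed widely between members. Per kilobase of exon, members with high levels included Rpl4 (1414 ± 215 CPM per kb), Rplp1 (1411 ± 182), Rpl8 (1370.1 ± 180.0), Rpl32 (1118 ± 251) and Rplp0 (924 ± 162), given as mean and SD over the 12 libraries. The lowest were Rpl5 (7.55 ± 1.45 CPM per kb), Rpl17 (6.77 ± 0.976), Rps25 (6.77 ± 0.992), Rps12 (6.75 ± 1.80), Rpl23a (5.98 ± 0.895) and Rpl24 (4.96 ± 1.29). By the longest or the principal transcript's length, 17 values of the 6 highest and 6 lowest members moved by their SD or more, and 7 did not. Rps12 has 2027 bases of merged exon and a principal transcript of 584 bases, against 1327 and 1326 for Rpl17. The order of the lowest members therefore depends on the length used. The 5 members with the most reads, among them Rpl4 and Rplp0, took 42.8% of all core reads. As background, a ribosome holds most of these proteins in single copies.

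The level of a member moved with how much of its sequence is its own. Of the 50-base windows of a member's principal transcript, the part found in no other gene's transcript was lowest in Rps27, at 1.35%, with a median of 48.3% over the 77 core members. Across core members, Spearman's rho between that part and the level per kilobase was 0.54, and 0.46 with the principal transcript's length, as a description over 77 genes that share libraries. The 18 core members under 20% had a median of 18.8 CPM per kb, and the 9 members at 80% or above a median of 181 CPM per kb. The table's entry for reads aligned to several places is 0 in every cell, and the handling of such reads was not given in the sources used here. Exons of other genes also overlapped some of the lowest members, covering 62.3% of the exonic bases of Rpl23a, 47.0% of Rpl24, 26.7% of Rpl5, 24.8% of Rps25 and 13.7% of Rps12. The overlaps of Rpl24 and Rps12 lie on the same strand, where no strand setting tells the reads apart. Those of Rpl23a, Rpl5 and Rps25 lie wholly or partly on the opposite strand. Without a stated strand setting, reads of those cannot be told apart either. Levels of members with little sequence of their own are therefore uncertain.

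**Figure D2:**
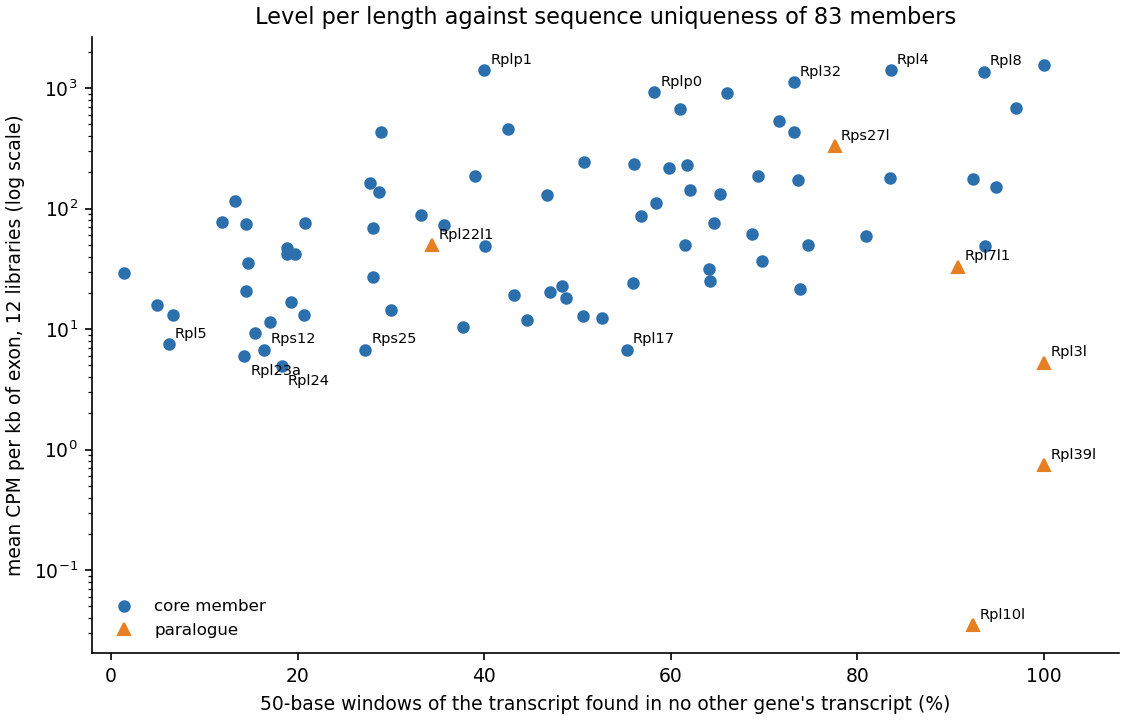
Mean level of each member over the 12 libraries (CPM per kb of exon, log scale) against the percent of 50-base windows of its principal transcript found in no other gene's transcript. Circles are core members and triangles paralogues, with Rpl4, at 1414 CPM per kb, near the top and Rpl24, at 4.96 CPM per kb, the lowest of the core members by this length.

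Over the 12 libraries the SD of a core member's log2 CPM had a median of 0.22. Members that varied little included Rpl13a (0.10), Rpl14 (0.11), Rpl30 (0.12) and Rpl26 (0.13). Those that varied most included Rps28 (0.80), Rpl21 (0.64), Rpl27 (0.47) and Rps27a (0.44). Spearman's rho between mean level and SD was -0.39 over the 77 genes. When every cell was thinned to 50000 counts, 44 core members had a read in at least 90% of the cells of every library, and 5 (Rpl17, Rpl23a, Rpl24, Rps12 and Rps28) had one in under 50% everywhere. Thinned to 200000 counts, Rpl24 had a read in 25.8 to 35.2% of cells as group means and Rps28 in 53.5 to 63.8%, Rps12 in 54.9 to 66.7%, Rpl23a in 43.4 to 58.1% and Rpl17 in 38.0 to 55.2%.

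**Figure D3:**
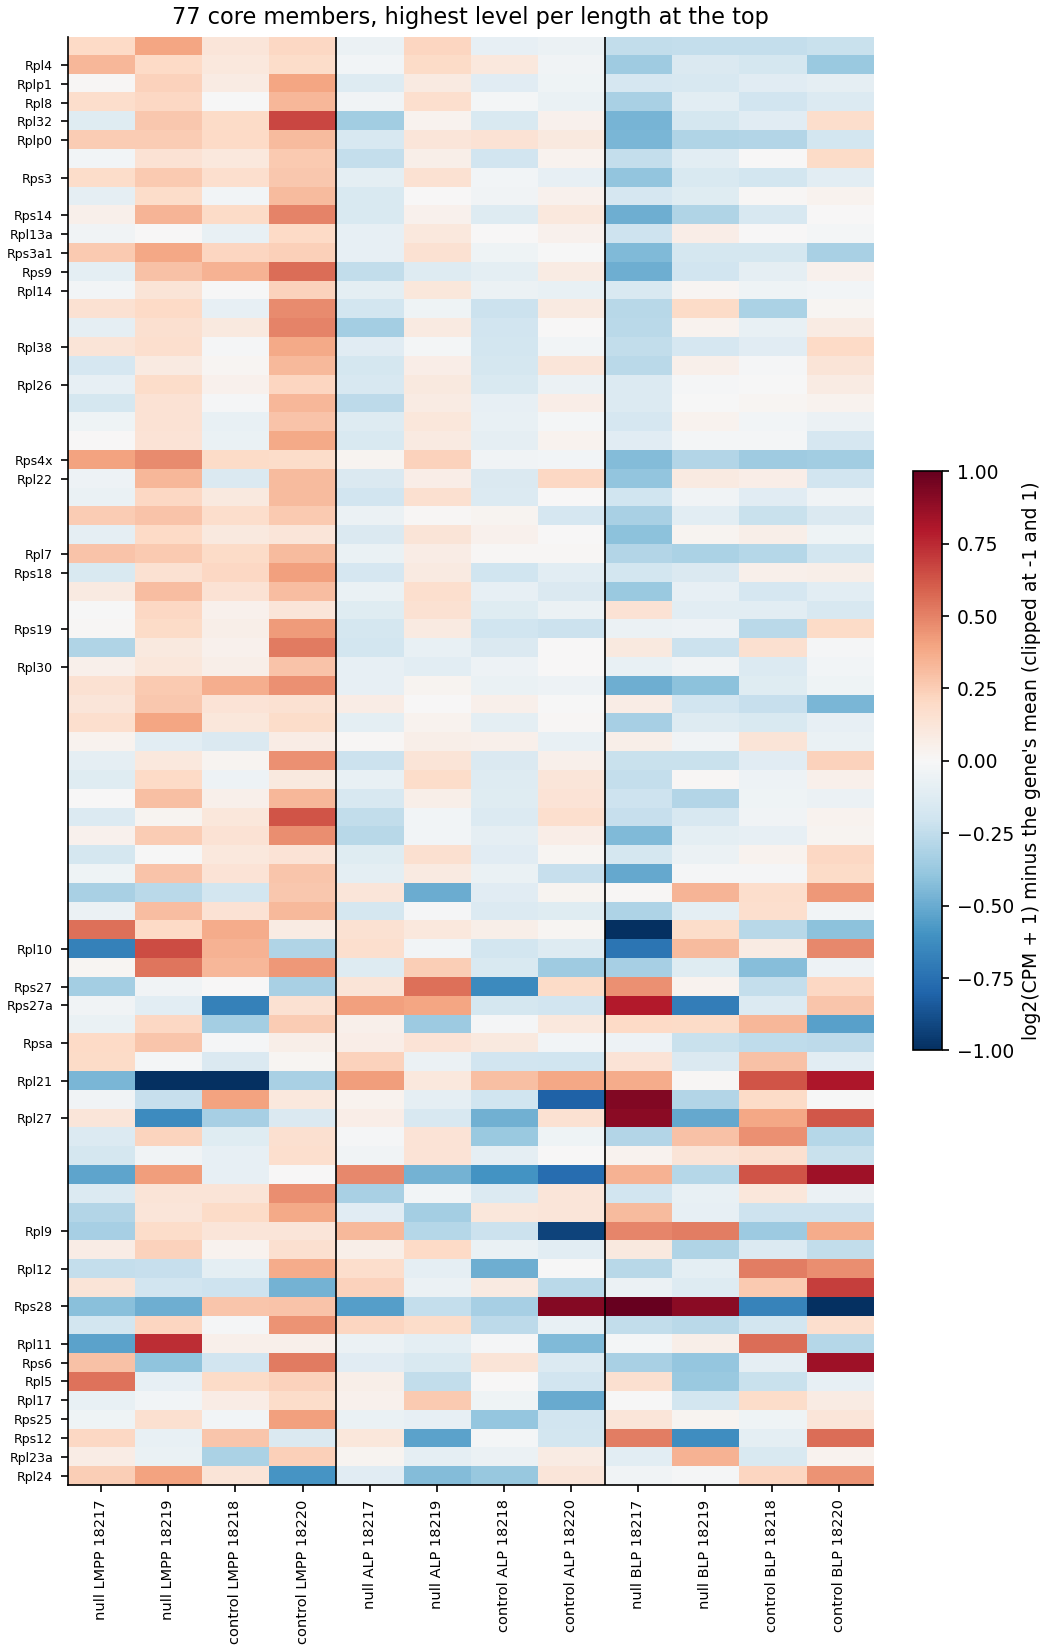
Level of the 77 core members, highest level per length at the top, in the 12 libraries as log2(CPM + 1) minus the gene's mean over the libraries, clipped at -1 and 1, with null left of control within each population. Rows near the top are red in LMPPs and blue in BLPs, and the strongest colours lie in low-level rows such as Rps28 and Rpl21, and names are given for the members described in the text.

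Going from LMPP to ALP, most core members were lower, each by a little. In edgeR's quasi-likelihood test with both genotypes averaged, 68 of 77 core members were lower in ALPs, against 49.5% of all 19903 genes tested. Their median log2 fold change was -0.18, against 0.01 over all genes. An adjusted p under 0.05 was reached by 0 core members and by 1.09% of all genes. At an unadjusted p under 0.05 there were 14 core members lower and 1 higher, against 13.2% of all genes in either direction. In control mice alone 67 core members were lower (median -0.22) and in null mice 57 (median -0.13), with 0 members and 0.271% of genes called in control mice, and 0 members and 0.211% of genes in null mice. All ALP libraries of control mice lay below all LMPP libraries of control mice for 47 core members, against 19.9% of all genes, and the same held in null mice for 21, against 18.1%. All ALP libraries lay above all LMPP libraries for 1 core member in control mice, against 20% of all genes, and for 6 in null mice, against 19.8%. At an unadjusted p under 0.05 there were 7 core members in control mice, against 8.77% of all genes, and 1 in null mice, against 8.78%. Of all genes, 50% were lower in ALPs in control mice and 49.3% in null mice. Without the null LMPP library of mouse 18219, 63 core members were lower for both genotypes together (median -0.12) and 40 in null mice (median -0.02).

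Between BLPs and ALPs about as many core members were higher as lower, and the lower ones included most of the members with many reads. Averaged over genotypes, 39 of 77 core members were higher and 38 lower in BLPs, where 51.3% of all genes were lower, with a median log2 fold change of 0.00, against -0.02 over all genes. Past the adjusted threshold there were 0 core members, against 0.0402% of all genes, and at an unadjusted p under 0.05 there were 7, all lower, against 9.7% of all genes. Among the 43 core members with a mean of at least 100 CPM, 30 were lower in BLPs with a median of -0.06, against 51.3% of the 2227 genes at that level and a median of -0.01. In the step before, 42 of these 43 were lower in ALPs than in LMPPs, with a median of -0.20, against 52.5% and -0.02 for genes at that level. The 5 members with the most reads together took 1.18 and 1.34% of gene counts in null ALPs, against 1.22 and 1.16% in control ALPs, and 0.926 and 1.03% in null BLPs, against 1.03 and 0.995% in control BLPs. In null mice 57 core members were lower in BLPs (median -0.10, 0 members and 0% of genes called), and in control mice 35 (median 0.02, 0 members and 0.00502% of genes called), where 50.2% of all genes were lower in either genotype. At an unadjusted p under 0.05 there were 9 core members in null mice, against 6.4% of all genes, and 7 in control mice, against 7.5%. BLP libraries lay wholly below ALP libraries for 22 core members and above for 8 in null mice, against 19.1% and 16% of all genes, and below for 14 and above for 19 in control mice, against 19.8% and 16.9%. Over both genotypes 9 core members lay wholly below and 1 above, against 2.7% and 2.2%. With cells thinned to equal counts, the 38 lower members of both genotypes together became 57.

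Among core members, 11 were lower at both steps in each of the 4 mice, among them the small-subunit members Rps3, Rps3a1, Rps4x and Rps14 and the large-subunit members Rpl4, Rpl7, Rplp0 and Rplp1. The opposite order in every mouse was seen for 0 of 77. Of all genes tested 1.37% were lower at both steps in this way, and of genes with at least 100 CPM, which include all 11, 4.49%.

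Rpl4, a large-subunit protein that lines the exit tunnel, lies at chr9:64173375-64178666 and had 3533 and 3218 CPM in null LMPPs, against 3014 and 3195 CPM in control LMPPs. ALP values were 2756 and 3208 CPM in null ALPs, against 3014 and 2739 CPM in control ALPs. BLP values were 2194 and 2536 CPM in null BLPs, against 2487 and 2171 CPM in control BLPs. Every BLP library lay below every ALP library. For BLP over ALP the log2 fold change was -0.32 ± 0.09 (adjusted p = 0.357, edgeR).

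Rplp0, the base of the stalk that recruits elongation factors, lies at chr5:115559467-115563727. It had 1801 and 1805 CPM in null LMPPs, against 1730.0 and 1884 CPM in control LMPPs. ALP values were 1354 and 1647 CPM in null ALPs, against 1669 and 1618 CPM in control ALPs. BLP values were 1099 and 1225 CPM in null BLPs, against 1236 and 1329 CPM in control BLPs. The 3 populations did not overlap. The log2 fold change was -0.20 ± 0.08 for ALP over LMPP (adjusted p = 0.350) and -0.36 ± 0.08 for BLP over ALP (adjusted p = 0.273, both edgeR). DESeq2's Wald test gave the second step an adjusted p of 0.0411.

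Rps4x, the X-linked small-subunit protein, lies at chrX:102184941-102189394. It had 347 and 365 CPM in null LMPPs, against 300.1 and 298 CPM in control LMPPs. ALP values were 268 and 309 CPM in null ALPs, against 256 and 257 CPM in control ALPs. BLP values were 194 and 214 CPM in null BLPs, against 205 and 206 CPM in control BLPs. BLPs lay below every library of the earlier populations, and in LMPPs and ALPs both null values lay above both control values. For BLP over ALP the log2 fold change was -0.41 ± 0.10 (adjusted p = 0.280 in edgeR, 0.00249 in DESeq2). For null over control in LMPPs it was 0.25 ± 0.13 (adjusted p = 0.739, edgeR).

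Rps9 and Rps18, both of the small subunit, had small p-values for ALP over LMPP and were lower in ALPs as well. Rps9 differed by -0.38 ± 0.12 (adjusted p = 0.222, edgeR). Rps9 was also the core member with the smallest p for null over control in LMPPs, at -0.34 ± 0.17 (adjusted p = 0.737, edgeR). Rps18 had 249.6 and 298 CPM in null ALPs, against 244 and 261 CPM in control ALPs, and its log2 fold change for ALP over LMPP in control mice was -0.46 ± 0.16 (adjusted p = 0.463, edgeR).

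Rpl21, a large-subunit protein at chr5:146832890-146837032, was higher in the later populations. It had 49.1 and 29.3 CPM in null LMPPs, against 31.8 and 53.8 CPM in control LMPPs. ALP values were 91.1 and 73.0 CPM in null ALPs, against 83.5 and 88.7 CPM in control ALPs. BLP values were 88.1 and 68.3 CPM in null BLPs, against 105 and 119 CPM in control BLPs. Every ALP and BLP library lay above every LMPP library. The log2 fold change for ALP over LMPP was 1.04 ± 0.24 (adjusted p = 0.102, edgeR), and it was 1.06 ± 0.34 in null and 1.01 ± 0.34 in control mice. With cells thinned to equal counts it was 1.27 with an adjusted p of 0.00769 in edgeR, and DESeq2 gave an adjusted p of 0.00159. Rpl21 was the one core member higher in ALPs than in LMPPs without overlap between libraries, against 4.19% of all genes. In the other direction there were 11 core members, against 4.08% of all genes.

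**Figure D4:**
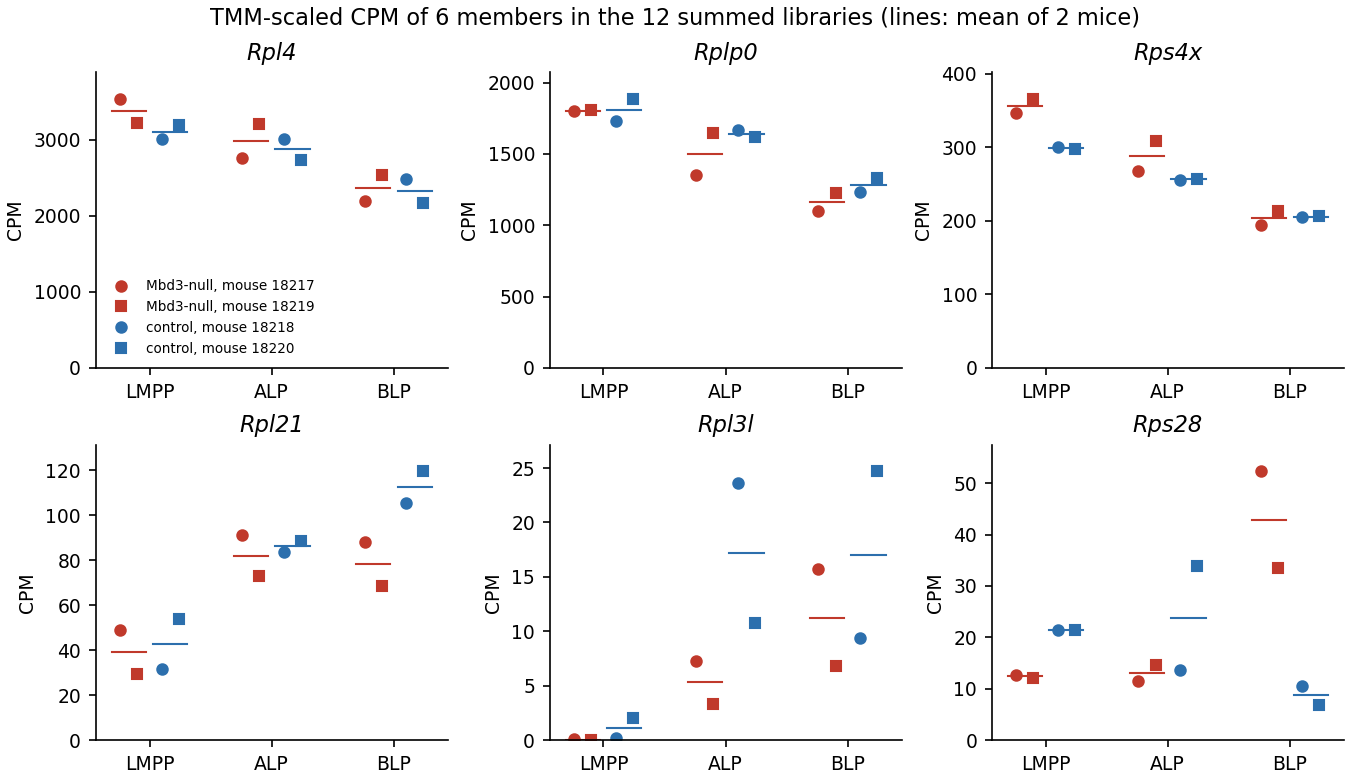
TMM-scaled CPM (vertical axes from 0) of 6 members in each of the 12 libraries by population, null mice red and left, control mice blue and right, with lines at the mean of 2 mice. Rpl4, Rplp0 and Rps4x are lowest in BLPs, Rpl21 and Rpl3l are lowest in LMPPs, and Rps28 is highest in null BLPs.

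The genotype comparison asks whether loss of Mbd3 changes these transcripts within a population. In LMPPs 49 of 77 core members were lower in null mice, with a median log2 fold change of -0.07, against 50.9% and -0.02 over all genes. In ALPs 30 were lower, with a median of 0.04, against 49.9% and 0.00. In BLPs 56 were lower, with a median of -0.11, against 50.4% and -0.01. Past the adjusted threshold of edgeR's test there were 0 members in LMPPs (0% of all genes), 0 in ALPs (0.00502% of all genes) and 0 in BLPs (0.01% of all genes). Mbd3, the gene deleted in the null mice, did not pass it in these comparisons either. At an unadjusted p under 0.05 there were 0 core members in LMPPs, against 6.76% of all genes, 0 in ALPs, against 4.5%, and 3 in BLPs, against 8.83%. Without the LMPP library of null mouse 18219, 57 core members were lower in null LMPPs with a median of -0.21, and without mouse 18220 33 were lower with a median of 0.04. With cells thinned to equal counts, most core members were no longer lower in null LMPPs, as given in the last paragraph.

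In BLPs both null libraries lay below both control libraries for 30 core members, against 17.1% of all genes, and above for 5, against 16.3%. In LMPPs there were 11 below and 6 above, against 17.8% and 16.2%, and in ALPs 3 below and 15 above, against 17% and 17.1%. The test of whether the step from ALP to BLP differed between null and control mice called 0 members and 0% of genes, although 63 of 77 core members had a lower step in null mice (median difference -0.14, against 51% and -0.02 over all genes). For the step from LMPP to ALP 21 of 77 had a lower step in null mice (median 0.10, against 48.9% of all genes), and it called 0 members and 0% of genes. At an unadjusted p under 0.05 these 2 tests gave 2 core members for the step to BLP, against 6.38% of all genes, and 0 for the step to ALP, against 5.25%. The 2 steps share the ALP libraries, and the step comparisons share their libraries with the genotype comparisons. With 1 library per mouse, all populations summed, 45 of 77 core members were lower in null mice (median -0.01, against 50.2% of all genes), with 0 members and 0% of 21047 genes called and 0 core members at an unadjusted p under 0.05, against 7.04% of all genes.

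DESeq2's Wald test, which called many more genes than edgeR in each comparison, called the members given here. For null over control it called Rpl3l in LMPPs (2.46% of all genes), Rpl39l in ALPs (1.39%), Rps28 in BLPs (4.02%) and Rpl39l with populations summed (2.83%). For ALP over LMPP it called Rpl3l and Rpl39l in null mice (4.65% of all genes), 2 members, among them Rpl3l, in control mice (4.62%), and 5 members, among them Rpl3l, Rpl39l, Rpl21 and Rpl7, over both genotypes (7.49%). For BLP over ALP it called Rps4x, Rps28 and Rpl39l in null mice (2.25%), 0 members in control mice (2.99%), and Rps4x, Rplp0 and Rpl39l over both genotypes (3.81%). For the difference between the null and the control step it called Rpl39l to ALP (1.2%), and Rpl39l and Rps28 to BLP (1.76%). Rpl39l was at most 0.0404 CPM in ALPs, and its other calls involve a null LMPP or BLP library in which it was above that level. With cells thinned to equal counts, edgeR called Rpl21 for ALP over LMPP in null mice (1.49% of 12973 genes), and Rpl21 and Rpl3l over both genotypes (3.93%).

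**Figure D5:**
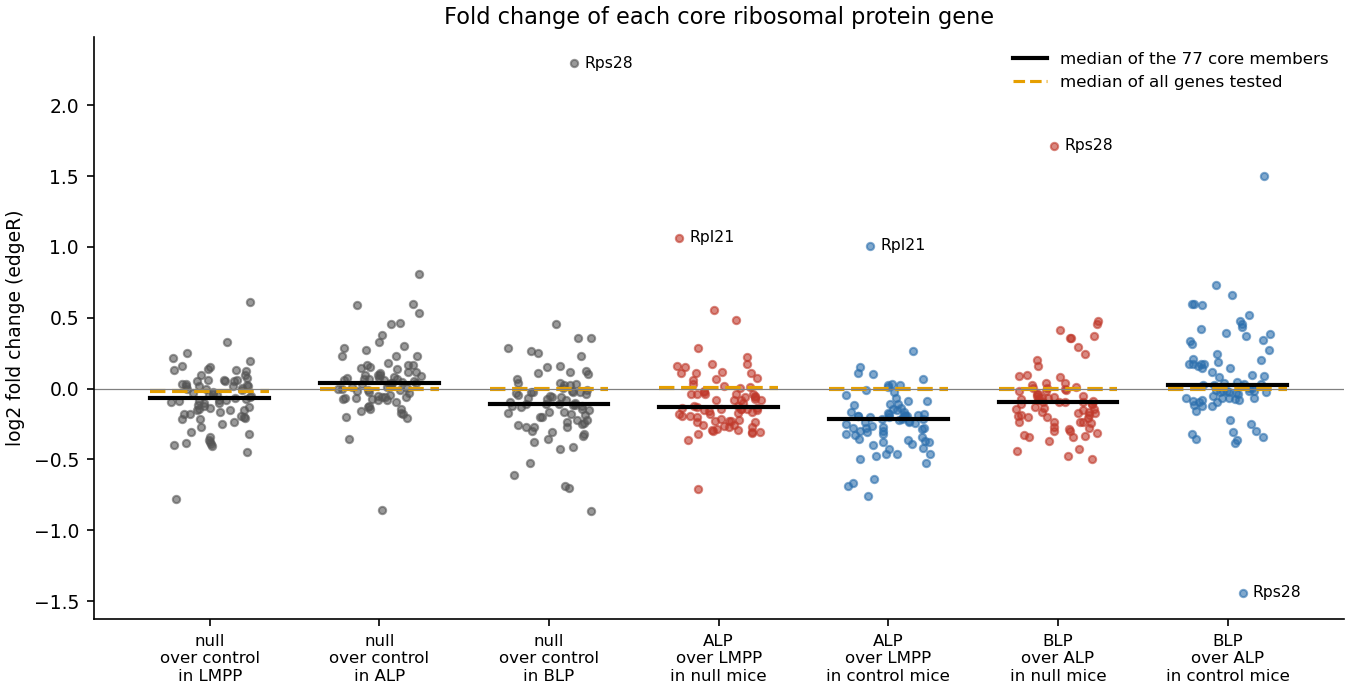
log2 fold change (edgeR) of each of the 77 core members in 7 comparisons, with a black bar at their median and a dashed line at the median of all genes tested. Medians of core members lie between -0.22 and 0.04, and names are given for Rps28 and Rpl21 where they lie beyond 1 on either side of 0.

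Rps28, a small-subunit protein at chr17:33819027-33824562, differed most of the core members between genotypes, in BLPs. It had 12.7 and 12.1 CPM in null LMPPs, against 21.4 and 21.4 CPM in control LMPPs. ALP values were 11.6 and 14.6 CPM in null ALPs, against 13.6 and 33.9 CPM in control ALPs. BLP values were 52.3 and 33.5 CPM in null BLPs, against 10.6 and 6.87 CPM in control BLPs. Both null values lay above both control values in BLPs and below them in LMPPs. The log2 fold change for null over control in BLPs was 2.30 ± 0.54 (adjusted p = 0.419 in edgeR, 0.000509 in DESeq2), and the difference between the null and the control step from ALP to BLP was 3.15 ± 0.75 (adjusted p = 0.776 in edgeR, 0.00159 in DESeq2). Few cells held most of these reads: 1 cell held 66.6% of the Rps28 reads of null BLPs of mouse 18217 and 1 held 31.5% in mouse 18219. Without the cell with the most reads, BLPs had 19.9 and 25.6 CPM without TMM scaling in null mice, against 8.35 and 5.65 in control mice. The median BLP had 5.76 and 4.38 unscaled CPM in null mice, against 5.06 and 4.05 in control mice.

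Rpl12, of the stalk region, had 37.4 and 42.5 CPM in null BLPs, against 65.4 and 63.2 CPM in control BLPs, a log2 fold change of -0.68 ± 0.29 (adjusted p = 0.563, edgeR). In null ALPs Rpl9 had 48.9 and 31.7 CPM, against 33.4 and 20.0 CPM in control ALPs, and only 6.68% of its windows were its own. Rpl27 ranged from 18.9 to 56.7 CPM and Rps27a, made as a fusion with ubiquitin, from 31.3 to 89.7 CPM, with null and control values overlapping in each population for Rpl27.

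Members with known roles beyond protein synthesis were not called by edgeR, and of the 9 chosen for their roles DESeq2 called Rplp0, as given above. Rps19, whose human counterpart is the one mutated most often in Diamond-Blackfan anaemia, had 403 and 457 CPM in null LMPPs, against 416 and 538 CPM in control LMPPs, and it had 384 and 386 CPM in null BLPs, against 331 and 457 CPM in control BLPs. Its log2 fold change for ALP over LMPP was -0.30 ± 0.14 (adjusted p = 0.402, edgeR), and for null over control with populations summed -0.04 ± 0.16 (adjusted p = 0.990, edgeR). Rpl5 and Rpl11, which with 5S RNA bind Mdm2 and so stabilise p53 when ribosome assembly fails, were among the low members. Rpl5 ranged from 22.3 to 43.0 CPM and Rpl11 from 18.5 to 46.2 CPM, and with populations summed null differed from control by 0.02 ± 0.27 and 0.06 ± 0.29 on the log2 scale (adjusted p = 0.996 and 0.995, edgeR). Rpl22 ranged from 333 to 550.3 CPM (null over control -0.00 ± 0.16, adjusted p = 0.998, edgeR). Rpl38, which in mice is needed for the translation of a subset of Hox messenger RNAs, ranged from 98.4 to 152 CPM. Rpl10, at the site where subunits join, ranged from 42.1 to 111 CPM, Rps6, the substrate of the S6 kinases, from 10.5 to 26.3 CPM and Rpsa, also known as a laminin receptor, from 63.6 to 92.6 CPM. Rps6 differed most of these members, -0.44 ± 0.35 for null over control (adjusted p = 0.883, edgeR).

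Rpl3l was the only member past the threshold. It is a paralogue of Rpl3 known from heart and skeletal muscle, lies at chr17:24727820-24736143, and all of its windows (100%) were its own. It had 0.0673 and 0.0172 CPM in null LMPPs, against 0.211 and 2.06 CPM in control LMPPs. ALP values were 7.31 and 3.34 CPM in null ALPs, against 23.6 and 10.8 CPM in control ALPs. BLP values were 15.7 and 6.79 CPM in null BLPs, against 9.40 and 24.7 CPM in control BLPs. Every ALP and BLP library lay above every LMPP library. Rpl3l rose in ALPs relative to LMPPs with a log2 fold change of 5.40 ± 0.97 (adjusted p = 0.0413, edgeR, 1 of 82 members against 1.09% of all genes). The size is uncertain, since the null LMPP libraries held 5 and 1 reads: it was 6.90 ± 1.48 in null mice (adjusted p = 0.166), 3.91 ± 1.25 in control mice (adjusted p = 0.422) and 4.68 with thinned cells (adjusted p = 0.0147, all edgeR). BLPs differed from ALPs by 0.54 ± 0.79 (adjusted p = 0.897, edgeR). The call rests on 2 mice per group: without 1 mouse in turn the adjusted p was 0.195 to 0.406, without the null LMPP library of mouse 18219 it was 0.183 with a log2 fold change of 5.09, and with mouse as a replicate block it was 0.0580, all from edgeR. DESeq2 gave 1.96e-09 and limma-voom 0.0469.

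The Rpl3l reads came from a minority of cells. At least 10 reads were found in 5 of 79 and 2 of 42 null ALPs, against 21 of 74 and 4 of 40 control ALPs. In BLPs they were found in 4 of 36 and 4 of 35 null cells, against 7 of 34 and 7 of 35 control cells. In LMPPs there were 0 of 45 and 0 of 47 null cells, which allows shares of up to 6.67% and 6.38%, against 1 of 47 and 2 of 47 control cells. The median cell had 0 reads in each of the 12 libraries. A single cell held 51.8% and 66.5% of the reads of null ALPs, against 11.7% and 36.8% of those of control ALPs. The limit of 10 reads is fixed, while the median null cell held fewer gene counts than the median control cell. With each cell thinned to 50000 counts, a read was found in 6.33% and 7.14% of null ALPs, against 24.3% and 10.0% of control ALPs. In BLPs a read was then found in 11.3% of null and 14.5% of control cells, as group means. In LMPPs it was found in 2.22% and 0% of null cells, against 0% and 2.13% of control cells, so the 1 control LMPP of mouse 18218 with at least 10 reads held none after thinning. Rpl3l was lower in null than in control mice in LMPPs (-4.67 ± 1.35, adjusted p = 0.677, edgeR), in ALPs (-1.69 ± 1.14, adjusted p = 1, edgeR) and with populations summed (-1.21 ± 0.52, adjusted p = 0.734, edgeR). No difference of Rpl3l by genotype passed edgeR's threshold, and DESeq2 called the one in LMPPs (log2 fold change -4.68, adjusted p = 0.00937).

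Per kilobase, Rpl3l made up 0.0311 ± 0.0275% of the reads of Rpl3 and Rpl3l together in null and 0.825 ± 0.945% in control LMPPs, 4.02 ± 1.93% in null and 11.9 ± 5.35% in control ALPs, and 8.44 ± 3.49% in null and 15.0 ± 9.50% in control BLPs (SD, n = 2 mice each). Of the windows of Rpl3 14.4% were its own, against 100% for Rpl3l, and the part of this in the shares was not tested. Rpl22l1, the paralogue of Rpl22, held 20.8 to 28.3% of the pair as group means, and Rpl7l1, a gene related to Rpl7, held 19.5 to 21.3%. The shares of all these pairs depend on the length used, here that of merged exons. It is 1989 bases for Rpl22l1 and 2911 for Rpl22, where the principal transcripts have 552 and 2051 bases. For Rpl3l and Rpl3 it is 1643 and 3175 bases, against 1375 and 1351. Shares by principal transcript were not computed. Rpl7l1 was also lower at both steps in each mouse, with 159 and 125 CPM in null LMPPs, against 130.2 and 160.0 CPM in control LMPPs, and 93.6 and 92.9 CPM in null BLPs, against 84.4 and 101 CPM in control BLPs. Rps27l, a target of p53, held 89.5 to 93.3% of the pair with Rps27 as group means, but only 1.35% of the windows of Rps27 were its own, against 77.6% for Rps27l. Rpl39l and Rpl10l, known from testis, were near 0. Rpl39l had 4.50 and 0 CPM in null LMPPs, with 1 cell holding 99.7% of the first value, and 0 and 2.84 CPM in null BLPs, and it was at most 0.0404 CPM in all other libraries. Rpl10l was at most 0.121 CPM.

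Other genes of protein synthesis were read beside the module, by lists chosen with earlier results of these data known. The counts below, averaged over genotypes, stand against 49.5% of all genes lower in ALPs than in LMPPs and 51.3% lower in BLPs than in ALPs. Past the threshold were 1.09% and 0.0402% of all genes at these steps. Of 11 translation elongation genes, 9 were lower in ALPs than in LMPPs and 9 lower in BLPs than in ALPs, with 0 past the threshold and medians of -0.17 and -0.15. Eef1a1, the factor that delivers aminoacyl-tRNA, had 2960.4 and 3115 CPM in null LMPPs, against 2569.8 and 2688 CPM in control LMPPs, and it had 1628 and 1915 CPM in null BLPs, against 1696 and 1732 CPM in control BLPs. All 11 were higher in null than in control mice with populations summed (median 0.11, 0 past the threshold), where 50.2% of all genes were lower and 0% passed. Of 25 initiation genes, 18 were lower in ALPs and 17 lower in BLPs at the next step. Eif4ebp1, which binds the cap-binding protein eIF4E and blocks initiation until mTOR phosphorylates it, was the one that passed: it fell in ALPs to a mean of 65.8 CPM, against 148 CPM in LMPPs (log2 fold change -1.17 ± 0.20, adjusted p = 0.0360, edgeR). Of 48 ribosome biogenesis genes tested, 31 were lower in ALPs and 28 lower in BLPs at the next step, with 0 past the threshold. Of 38 mitochondrial ribosomal protein genes, 29 and 25 were lower, with 0 past the threshold. All 6 snoRNA host genes tested were lower in ALPs (median -0.30) and 2 of 6 lower in BLPs at the next step, with 0 past the threshold. Of 18 regulators of ribosomal protein genes, 8 were lower at each step, with 0 past the threshold.

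Of 12 genes of the p53 checkpoint that answers ribosome faults, 8 were higher in ALPs than in LMPPs and 8 higher in BLPs than in ALPs. Of all genes, 49.5% and 51.3% were lower at these steps, and 1.09% and 0.0402% passed the threshold. Cdkn1a, an inhibitor of the cell cycle kinases, was the one that passed: it rose in ALPs to a mean of 144 CPM, against 24.8 CPM in LMPPs (log2 fold change 2.56 ± 0.44, adjusted p = 0.0350, edgeR). The list summed to 836 and 689 CPM in null LMPPs, against 708 and 828 CPM in control LMPPs, and to 1319 and 1363 CPM in null BLPs, against 1206 and 1265 CPM in control BLPs. With populations summed 5 of 12 were higher in null mice, and 0 passed, where 50.2% of all genes were lower and 0% passed. Of 13 NuRD genes, 10 were higher in ALPs than in LMPPs and 6 of 13 higher in null mice with populations summed, with 0 past the threshold in either comparison. The 13 include Mbd3, which also did not pass within a population. It had 0.337 and 0.569 CPM in null BLPs, against 82.4 and 191 CPM in control BLPs. A count of 0 past the threshold by genotype therefore does not show that levels were equal.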

How the data were processed

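Single bone marrow progenitors of 4 mice were sorted into plates and sequenced as full-length libraries, per the labels' protocols. The authors deposited raw read counts for each gene in each cell, as whole numbers. The submitters' processing notes name GSNAP 2015-09-29, HTSeq 0.5.3p3 and the mm10 build. Annotation release and strand setting were not given in the sources used here. Entries that name no gene stayed out of library sizes and tests: reads on no feature were 11.6% of all entries, ambiguous reads 6.08%, unaligned reads 33.0% and spike-ins 6.13%. Symbols, exon lengths and coordinates came from the GENCODE annotation of GRCm38.

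Cells, which were assigned to population, genotype and mouse by their titles, were kept if they had 50000 or more nuclear gene counts and 1000 or more detected nuclear genes, with no more than 20% of counts mitochondrial and no more than 50% from spike-ins. This left out 111 of 672 cells. No doublet caller was run on cells sorted singly. Counts of kept cells were summed per mouse and population into 12 libraries. Genes passing filterByExpr (19903) were scaled by TMM and tested with edgeR 4.0.16 (R 4.3.3, glmQLFit and glmQLFTest) in a joint fit of the 6 groups (6 residual degrees of freedom), with Benjamini-Hochberg adjustment over all genes at 0.05. The common dispersion gave a biological coefficient of variation of 86.9%. A second fit used 1 library per mouse (21047 genes, 2 residual degrees of freedom). Each standard error is |log2 fold change| over the root of its F statistic. The code was tested on simulated data. Shared sequence was measured as exact 50-base windows against all annotated transcripts.

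Members and lists were chosen with earlier results of these data known. The text names every paralogue, 9 members with known roles (Rpl5, Rpl11, Rpl10, Rpl22, Rpl38, Rps19, Rps6, Rplp0 and Rpsa), the 6 highest and 6 lowest core members by level per length, the 5 that vary most and the 5 that vary least, and in each comparison the members past the threshold or otherwise the 2 per direction with the smallest p. Rpl4 and Rpl7l1 are also described for their order across populations, chosen after their values were seen. Some genes that this rule or these lists name are not reported here. Other lists give up to 2 members per direction past the threshold. Each mouse gave all 3 populations, so its number pairs the population comparisons, and a fit with mouse as a replicate block was an alternative. Across genes, the deviations of a mouse's libraries from their group means had correlations of 0.0295 to 0.0507. Alternatives were other scalings, DESeq2 1.42.0, limma-voom (limma 3.58.1), no low-count filter, all cells, thinned cells, each mouse left out, the ALP libraries of mice 18219 and 18220 left out, other lengths and other totals.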

Additional observations from a re-analysis of the deposited data

Results flagged for a closer look

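Reads were also assigned to pseudogenes of ribosomal protein genes, which the comparisons above do not use. The 268 genes of the table named as such pseudogenes held 0.479% of gene counts over the 12 libraries, against 2.85% for the 77 core members. Per library they held 16.3 to 17.3 reads per 100 reads of core members, with 16.6 ± 0.397 in null and 16.7 ± 0.0373 in control LMPPs, 16.7 ± 0.175 in null and 16.7 ± 0.276 in control ALPs, and 17.2 ± 0.0629 in null and 17.2 ± 0.121 in control BLPs (SD, n = 2 mice each). Rpl14-ps1 held 16.0% of these reads, Rpl3-ps1 9.55%, Rps16-ps2 8.77% and Rpl10a-ps1 7.99%. Whether these reads came from the pseudogenes or from the parent genes was not tested.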

How the results depend on the processing

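With DESeq2's Wald test 1 member was called for null over control in LMPPs, in ALPs, in BLPs and with populations summed, 2 for ALP over LMPP in null and 2 in control mice, 5 for ALP over LMPP averaged, 3 for BLP over ALP in null mice and 3 averaged, and 1 and 2 for the differences between null and control steps to ALP and to BLP. Over all genes DESeq2 called 489, 276 and 800 for null over control in LMPPs, ALPs and BLPs (edgeR 0, 1 and 2), 596 with populations summed (edgeR 0), 926 and 920 for ALP over LMPP in null and control mice (edgeR 42 and 54), 1491 averaged (edgeR 217), 448 and 595 for BLP over ALP in null and control mice (edgeR 0 and 1), 758 averaged (edgeR 8), and 239 and 351 for the differences between steps (edgeR 0 and 0). ALP over LMPP in null mice called 1 member without a low-count filter and 1 with thinned cells, and averaged 2 with thinned cells. The averaged count of 1 (Rpl3l) was 0 to 0 with 1 mouse left out in turn, 0 without the ALP libraries of mice 18219 and 18220, 0 without the null LMPP library of mouse 18219 and 0 with the replicate block, which changed no other count of members called. Without the mitochondrial genome the ribosomal protein share was 3.36% in null LMPPs, 2.92% in control ALPs, 2.56% in null BLPs and 2.71% in control BLPs. It was 2.68% in control ALPs over all cells and 2.49% in control BLPs with thinned cells. Per cell, without the mitochondrial genome, it was 3.40% in null LMPPs, 2.96% in null and 2.90% in control ALPs, and 2.44% in null and 2.65% in control BLPs. Over all cells it was 2.42% in null and 2.13% in control ALPs, and with thinned cells 2.75% in control ALPs. Over all cells the median per cell was not lower in BLPs than in ALPs in 2 of 4 mice. The log2 fold change of Rpl39l, which rests on 1 cell in each of 2 libraries, ran from -1.92 to 10.48 for null over control in LMPPs and from -2.27 to 9.78 in BLPs, from -11.72 to 0 for ALP over LMPP and from 0 to 10.96 for BLP over ALP in null mice, with 1 mouse left out in turn. With thinned cells, 24 core members were lower in null LMPPs in place of 49, and 38 had a lower null than control step to ALP in place of 21 (32 without mouse 18220). The cause was not tested. The median standard error of a core member's log2 fold change was 0.21 within a population.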
